A study of Homo sapiens with 7 samples.

Results

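The cystatin genes around CST1, 7 of 22670 listed genes, were followed in human embryonic stem cells (hESCs) of the SEES-3 line that carry JMJD3c, the catalytic part of the H3K27 demethylase JMJD3 (KDM6B), under doxycycline (Dox) control. The 7 genes CST1, CST2, CST3, CST4, CST6, CST7 and CSTB were taken by name, each name having 1 entry. The group was chosen by the FPKM of CST1, one of the largest rises at Day 4 relative to Day 0. The values of that comparison, and of others that use CST1 at Day 4, are therefore a description. The other members are cystatins of the same superfamily. JMJD3c-hESCs were sampled without Dox (Day 0) and after 1, 2, 3 and 4 days with Dox at 1 µg/ml. A second line, the JMJD3c mut-hESCs, expresses a point mutant without catalytic activity and was sampled without Dox and after 4 days of Dox. Both lines are stable clones of the same parental cells, made by piggyBac insertion, selected with puromycin and expressing the reverse Tet-transactivator, and all were kept feeder-free in maintenance medium. Each of the 7 conditions had 1 library, so no difference has a replicate check and no test between conditions was possible.

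Cystatins are reversible inhibitors of papain-like cysteine proteases, the group that includes most lysosomal cathepsins. Stefins such as CSTB lack a signal peptide and work inside the cell. Type 2 cystatins, which include the other 6 members, are secreted proteins, and cystatin C, the product of CST3, is made by most nucleated cells. CST1, CST2 and CST4 encode the closely related cystatins SN, SA and S, which are best known from saliva, while CST6 encodes cystatin M/E of skin and CST7 encodes cystatin F of leukocytes.

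Expression is given as FPKM, the number of mapped fragments of a gene scaled to its exon length and to the depth of the library, with the 95% interval that Cufflinks gave for the library in brackets. This interval describes the estimate in 1 library and not the spread between cultures. KDM6B, to which reads of the transgene can also map, had 3.45 FPKM before Dox and 282 on Day 4, and in the mutant line 2.40 FPKM before and 454 after Dox. The 8 markers of undifferentiated hESCs examined were all at or above 60.4 FPKM in every library. The 4 leukocyte markers did not exceed 1 FPKM in any library. Of the 5 fibroblast markers, COL3A1 and DCN were at 0 in at least 6 libraries. The collagen genes COL1A1 and COL1A2 were above 4 FPKM in every library, and THY1 was at or above 76.1 FPKM. The spacing of low FPKM values gave an estimate of 1770000 to 3660000 mapped reads per library, lowest at Day 0.

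CST1, CST2 and CST4 lie within the cystatin cluster of chromosome 20, and their likeness decides how well their reads can be told apart. The 423 coding bases of CST1 were identical to those of CST2 at 386 positions (91.3%) and to those of CST4 at 392 positions (92.7%). Both comparisons used GENCODE transcripts.

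The reads were 150 bases long. Of the 600 windows of this length in the CST1 transcript, 3 also occur unchanged in the CST4 transcript and 75 lie within 2 mismatches of it. No window lies within 2 mismatches of CST2, where the closest differs by 4 bases, nor of CST5 or CST3, where the closest differ by 14 and 15. A few reads of CST1 and CST4 can therefore not be separated, while most of the CST1 transcript is distinct from its relatives at this read length.

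CST1, cystatin SN (ENSG00000170373, chromosome 20 of hg19, 23728190 to 23731905, minus strand, 3 exons), was the member with the largest change. From 0 FPKM at Day 0 it went through 1.35 [0 to 4.61] after 1 day of Dox and 13.4 [7.79 to 19.1] after 2 days to 45.6 [35.4 to 56.0] after 3 days and 62.5 [48.6 to 76.5] after 4 days. Both mutant-line libraries, without and with Dox, had 0 FPKM. The 3 later days of active JMJD3c thus stood above the other 4 libraries. The step from Day 1 to Day 2 and the step from Day 2 to Day 3 (3.41-fold) had intervals apart, whereas Day 4 was 1.37-fold above Day 3 with overlapping intervals.

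Estimated reads for CST1, taking its 749-base transcript, on Days 1 to 4 were 1.97, 23.6, 86.0 and 83.5. The higher FPKM at Day 4 than at Day 3 thus rests on fewer estimated reads in a shallower library. At Day 0, 3 reads of CST1 would have given 3.08 FPKM, which is above the value listed at Day 1, so a difference between Day 0 and Day 1 was not detectable at this depth. Taking the lower end of each interval over this floor, CST1 was at least 2.53-fold higher at Day 2, at least 11.5-fold higher at Day 3 and at least 15.8-fold higher at Day 4. The mutant-line libraries were deeper, with floors of 1.49 FPKM without Dox and 1.71 FPKM with Dox. Taken likewise, Day 4 was at least 32.5-fold above the untreated mutant line and at least 28.4-fold above the Dox-treated one. These bounds say nothing of the spread between cultures. By log2 fold change of FPKM + 1, CST1 had rank 3 from the largest rise among 20187 genes on chromosomes at Day 4 against Day 0. Against the untreated mutant line it had rank 4 and against the Dox-treated one rank 3. Since CST1 was chosen by its rise at Day 4, a high rank was set by that choice. The mutant-line ranks and bounds use the same Day 4 value and are no independent support.

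CST3, cystatin C (ENSG00000101439, chromosome 20, 23608534 to 23619110, minus strand, 3 exons), was expressed in every library and was the second member to change. Its FPKM was 20.5 [11.6 to 29.5] before Dox, 16.2 [9.74 to 22.7] after 1 day, 33.5 [25.1 to 41.9] after 2 days, 45.5 [36.6 to 54.5] after 3 days and 62.1 [49.1 to 75.2] after 4 days. The mutant line had 14.8 FPKM [9.81 to 19.7] without Dox and 11.4 FPKM [6.44 to 16.3] with it. The highest 3 values were again Days 2, 3 and 4 of active JMJD3c, and the lowest was the Dox-treated mutant line. Between neighbours in this order the intervals always overlapped, but of the 21 pairs of libraries 12 had intervals apart.

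Relative to Day 0, CST3 was 1.63-fold higher at Day 2, 2.22-fold at Day 3 and 3.02-fold at Day 4, the last a log2 fold change of 1.55. The intervals of Days 3 and 4 were apart from that of Day 0, and that of Day 2 was not. Relative to the untreated mutant line, CST3 was 4.21-fold higher at Day 4, and relative to the Dox-treated mutant line it was 5.45-fold higher, with intervals apart in both. With the untreated mutant line as the reference, the ratio of CST3 was already 2.27 at Day 2, with intervals apart. Dox in the mutant line gave a ratio of 0.772 with overlapping intervals.

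**Figure D1:**
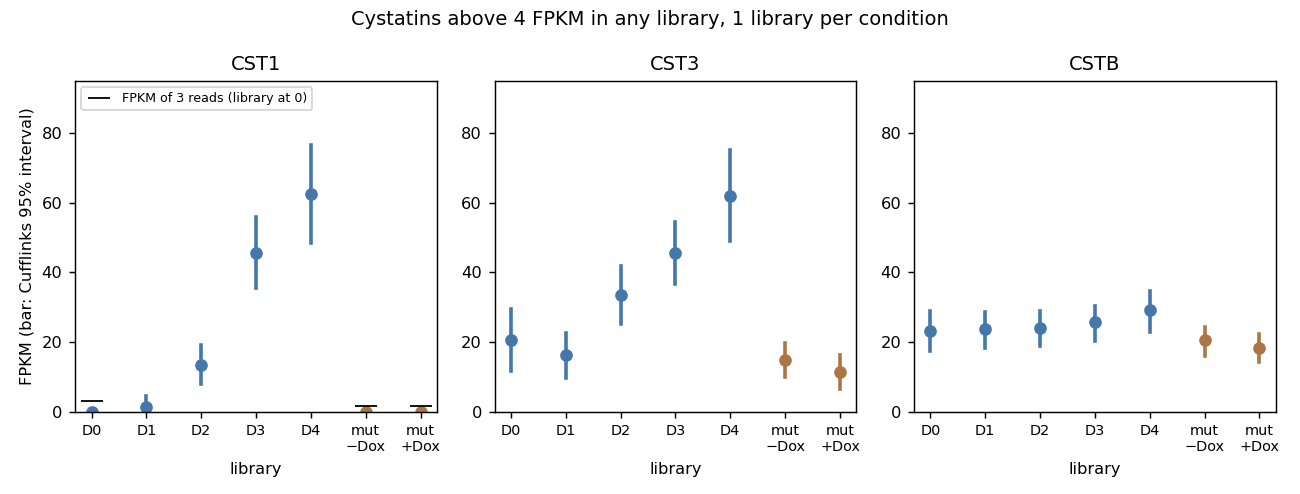
FPKM (vertical axis) of CST1, CST3 and CSTB in each of the 7 libraries, with blue for the JMJD3c line (Days 0 to 4), brown for the mutant line, and vertical bars for Cufflinks 95% intervals of the single library; black dashes in the CST1 panel mark the FPKM of 3 reads where CST1 is listed at 0. CST1 and CST3 reach 62.5 and 62.1 FPKM at Day 4, while CSTB stays between 18.3 and 29.3 FPKM.

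CSTB, the cytosolic stefin B (ENSG00000160213, chromosome 21, 45192393 to 45196326, minus strand), differed least among the expressed members. Days 0 to 4 had 23.2, 23.7, 24.1, 25.6 and 29.3 FPKM, with an interval of 23.0 to 34.5 for the last. The mutant line had 20.4 FPKM without Dox and 18.3 FPKM [14.1 to 22.2] with it. Each day of the JMJD3c line lay above both mutant-line libraries, but only 1 of the 21 pairs of libraries, Day 4 and the Dox-treated mutant line, had intervals apart. The ratio of that pair was 1.60, and Day 4 against Day 0 had a ratio of 1.26, so CSTB passed no cutoff.

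The remaining 4 members were at or below the level of a few reads. CST2, cystatin SA, and CST7, cystatin F, were listed at 0 FPKM in all 7 libraries, where 3 reads of CST2 would have given between 1.50 and 3.10 FPKM. CST4, cystatin S, had 0.566 FPKM on Day 2 and 0.265 on Day 3, and 0 in the other 5 libraries. These values correspond to 0.999 and 0.499 estimated reads, so neither exceeds 1 read. CST6, cystatin M/E (chromosome 11), had 1.01 FPKM before Dox, 0.558 on Day 2 and 0 elsewhere, and the ratio of these values, 1.81, equals the ratio of the depths of the 2 libraries. No fold change of these genes is given. Expression of CST2 and CST4 below the floor could have been missed, and no floor was estimated for CST6 and CST7.

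The cutoffs of the study were a ratio of 2 or of 0.5 and an FPKM of 4. They were applied here so that an upregulated gene exceeded 4 FPKM after treatment and a downregulated gene exceeded it in the reference. By these cutoffs CST1 and CST3 were upregulated at Day 4 against Day 0. Only 3 of the 7 members, CST1, CST3 and CSTB, had more than 4 FPKM in either library and could have passed. Across all genes, 602 of 10247 that could have passed were upregulated (5.87%) and 7.56% were downregulated, and since this comparison chose CST1 nothing is read from the 2 against that share. At Day 3, CST1 and CST3 were upregulated (all genes, 4.73% up and 4.48% down), at Day 2 CST1 alone (3.90% up and 4.24% down) and at Day 1 neither (3.48% up and 3.27% down). These comparisons share the Day 0 library. Against the untreated mutant line CST1 and CST3 were upregulated at Day 4 (all genes, 7.05% up and 3.90% down), as they were against the Dox-treated mutant line (6.56% up and 3.00% down). The last 2 comparisons share the Day 4 library, by which CST1 was chosen. In the mutant line itself Dox moved neither CST3 nor CSTB past the cutoffs, with 1.25% of all genes upregulated and 1.53% downregulated there. At Day 1 and in this comparison, CST3 and CSTB were the only members that could have passed. No member was downregulated in any of these comparisons, but only CST3 and CSTB exceeded 4 FPKM in a reference and could have been. The median log2 fold change of the 7 members at Day 4 against Day 0 was 0, with 3 members at 0 FPKM in both libraries. That of all genes above 4 FPKM was -0.06, a set that only 3 of the 7 members would enter, so these medians are not compared.

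**Figure D2:**
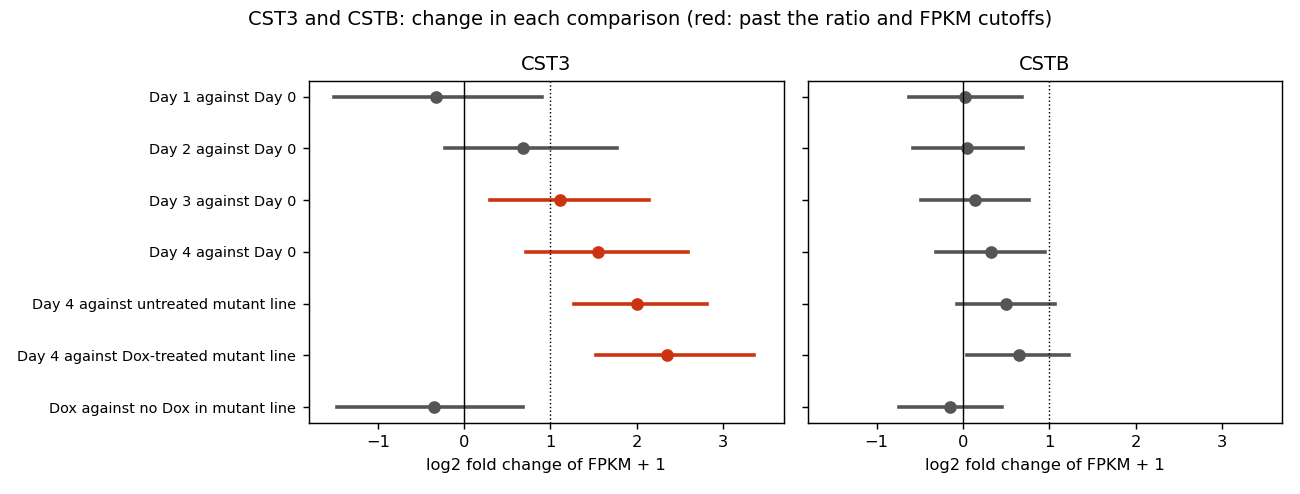
Log2 fold change of FPKM + 1 (horizontal axis) of CST3 and CSTB in 7 comparisons, with points for the change, bars for the range that the Cufflinks intervals of both libraries allow, a dotted line at 1 and red for changes past the cutoffs. CST3 lies at 1.55 at Day 4 against Day 0 and at 2.35 against the Dox-treated mutant line, while CSTB lies at 0.32 and 0.65 in these comparisons.

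The makeup of cystatin expression shifted with these values. At Day 0 the 7 members summed to 44.8 FPKM, of which CSTB gave 51.9%, CST3 45.9% and CST1 none. At Day 4 they summed to 153.9 FPKM, with CST1 at 40.6%, CST3 at 40.3% and CSTB at 19.0%. The FPKM of CST1 divided by that of CST3 was 0.0832, 0.399, 1.00 and 1.01 on Days 1 to 4. In the mutant line CST1 gave none, as at Day 0, and CSTB gave 58.1% without Dox and 61.6% with Dox.

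The summed level of definitive endoderm markers was also highest on Days 2, 3 and 4. The 8 markers SOX17, FOXA2, CXCR4, GATA6, GATA4, CER1, EOMES and HHEX summed to 1.11 FPKM at Day 0, where 6 of them were at 0, and to 12.1, 71.7, 158 and 262 FPKM at Days 1 to 4, where all 8 were above 1 FPKM from Day 2. Their sum was 7.32 FPKM in the untreated mutant line and 5.65 in the Dox-treated one. CER1, a secreted antagonist of Nodal, alone gave 134 FPKM of the Day 4 sum, while HHEX had 2.70 FPKM on Day 4 and 2.88 in the untreated mutant line. On Day 1 the sum was above that of Day 0, whereas CST3 was at 16.2 FPKM beside 20.5, with overlapping intervals. CST1 was at 1.35 FPKM on Day 1 beside 0 at Day 0, a difference not detectable at this depth. The sum of the hESC markers was 2621 FPKM at Day 0 and 1826 at Day 4, and 2456 and 2127 in the mutant line. Within this sum SOX2 had 135.6 FPKM at Day 0 and 65.9 on Day 4, and DNMT3B 404 and 191, both under 0.5 times Day 0. The fall was smaller for NANOG, with 107.9 and 92.9 FPKM, and for LIN28A, with 485 and 442. Summed over 5 markers each, neural genes lay between 240.1 and 339 FPKM and fibroblast genes between 92.8 and 166 FPKM in the 7 libraries, and 6 trophoblast markers summed to between 2.99 and 6.53 FPKM, with HAND1 and CGA at 0 throughout. Single markers within these sums differed more, as NES had 106 FPKM at Day 0 and 162 on Day 4, PAX6 had 2.22 at Day 0 and 9.62 on Day 1, GATA3 had 0 at Day 0 and 2.68 on Day 4, and KRT7 had 3.98 and 1.06 on these days. The part of these shifts in the cystatin values was not tested. In whole cultures, more cells of a type and more RNA per cell cannot be told apart.

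The neighbourhood of CST1 was examined because CST3 is its neighbour in the same cluster. Within 1500000 bases of CST1 on chromosome 20 lie 26 other listed genes, of which 8 had more than 4 FPKM at Day 0 or Day 4. CST3, 109.1 kb away, and FOXA2, a forkhead factor of endoderm 1162 kb away (22561643 to 22566093), were upregulated at Day 4. No gene was downregulated (all genes, 5.87% up and 7.56% down). With 8 genes that could have passed, nothing is read from these counts against those shares. FOXA2 had 0.255, 5.12, 14.8, 20.4 and 27.2 FPKM on Days 0 to 4, and the mutant line had 1.86 FPKM before and 2.27 after Dox. On Day 1 FOXA2 was at 5.12 FPKM and CST1 at 1.35 [0 to 4.61]. The order in which these genes rose was not tested. The other 6 expressed neighbours had ratios between 0.954 and 1.48, with intervals apart for APMAP alone. Of the 26 genes, 9 were at 0 in all libraries, and 7 of these were cystatin genes. Within the cluster CST3 and CST1 were thus the only cystatin genes above 4 FPKM in any library.

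**Figure D3:**
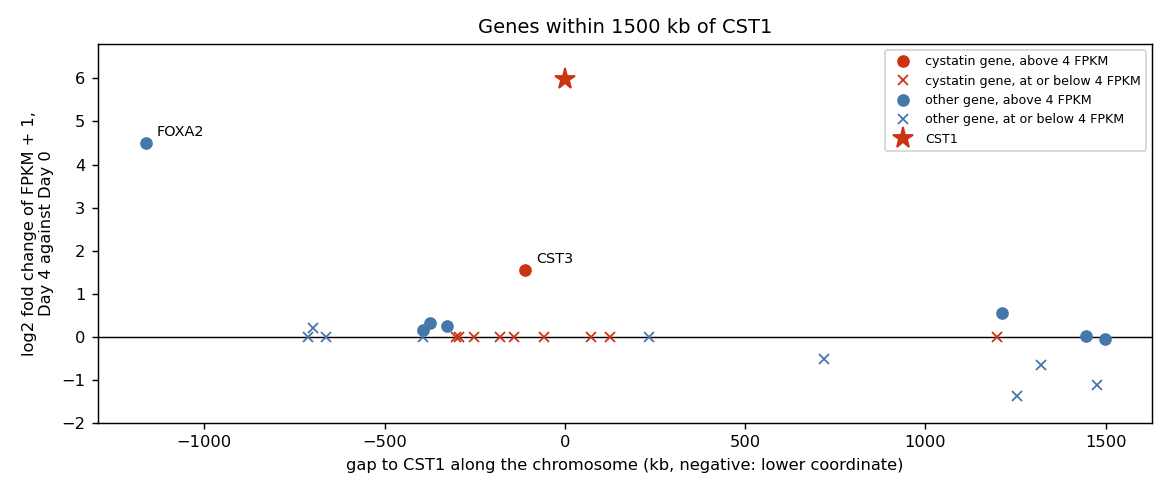
Log2 fold change of FPKM + 1 at Day 4 against Day 0 (vertical axis) by gap to CST1 along the chromosome in kb (horizontal axis), with red for cystatin genes, blue for other genes, filled points for genes above 4 FPKM at Day 0 or Day 4 and crosses for the rest. CST1, CST3 and FOXA2 stand above 1, and the other 6 expressed genes lie between -0.065 and 0.553, with APMAP the highest of them.

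Outside the 7 members the cystatin superfamily was at or near 0. Of 11 such genes, the stefin CSTA, the type 2 genes CST5, CST8, CST9, CST9L, CST11 and CSTL1, and the plasma proteins KNG1, HRG, AHSG and FETUB, none exceeded 4 FPKM in any library and none was called in any comparison. The highest value among them was that of CST5, cystatin D, with 1.68 FPKM on Day 2 (3.00 estimated reads) and 0 in the other 6 libraries.

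The enzymes that cystatins inhibit were followed as a list. Of 12 such enzymes, 11 papain-family cathepsins and legumain, 9 were above 4 FPKM at Day 0 or Day 4 and none passed the cutoffs at Day 4 against Day 0 (all genes, 13.4% in either direction). At that time 8 stood higher than before Dox and 3 lower. The median log2 fold change of all 12 was 0.14, beside -0.06 for all genes above 4 FPKM, a set that only 9 of the 12 would enter. Their summed FPKM was 281 at Day 0 and 367 at Day 4, and in the mutant line 276 before and 315 after Dox.

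CTSC, the dipeptidyl peptidase that activates granule serine proteases, was the highest of these enzymes. Days 0 to 4 had 122, 128, 168, 165 and 178 FPKM, with intervals of 98.6 to 143 for the first and 145 to 187 for the last. It was the only protease with intervals apart at Day 4 against Day 0, at a ratio of 1.45, but the Dox-treated mutant line also had 170 FPKM against 141 without Dox. CTSV, a cathepsin close to CTSL, was listed between 42.4 and 60.9 FPKM with no order by day. CTSB, a broad lysosomal protease, had 35.8 FPKM before Dox and 56.5 on Day 4, and 32.8 and 36.5 FPKM in the mutant line, with overlapping intervals in each pair.

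CTSK, the collagen-degrading cathepsin of osteoclasts, had 5.79, 4.55, 8.13, 9.56 and 10.6 FPKM on Days 0 to 4, with an interval of 6.76 to 14.4 for the last. The mutant line had 5.31 FPKM without Dox and 2.93 FPKM [0.837 to 5.05] with it. As for CST3, Days 2, 3 and 4 were its highest values and the Dox-treated mutant line its lowest. Its ratio at Day 4 was 1.83 against Day 0, below the cutoff, and 3.60 against the Dox-treated mutant line, above it and with intervals apart. CTSF also passed the cutoff in that last comparison, at 6.50 against 2.42 FPKM, but it was highest at Day 1 with 8.60 FPKM and its intervals overlapped. CTSK and CTSF were the 2 upregulated of 9 proteases that could have passed there (all genes, 6.56% up). Before Dox, CTSF was at 7.91 FPKM in the JMJD3c line and 3.39 FPKM in the mutant line, with overlapping intervals.

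**Figure D4:**
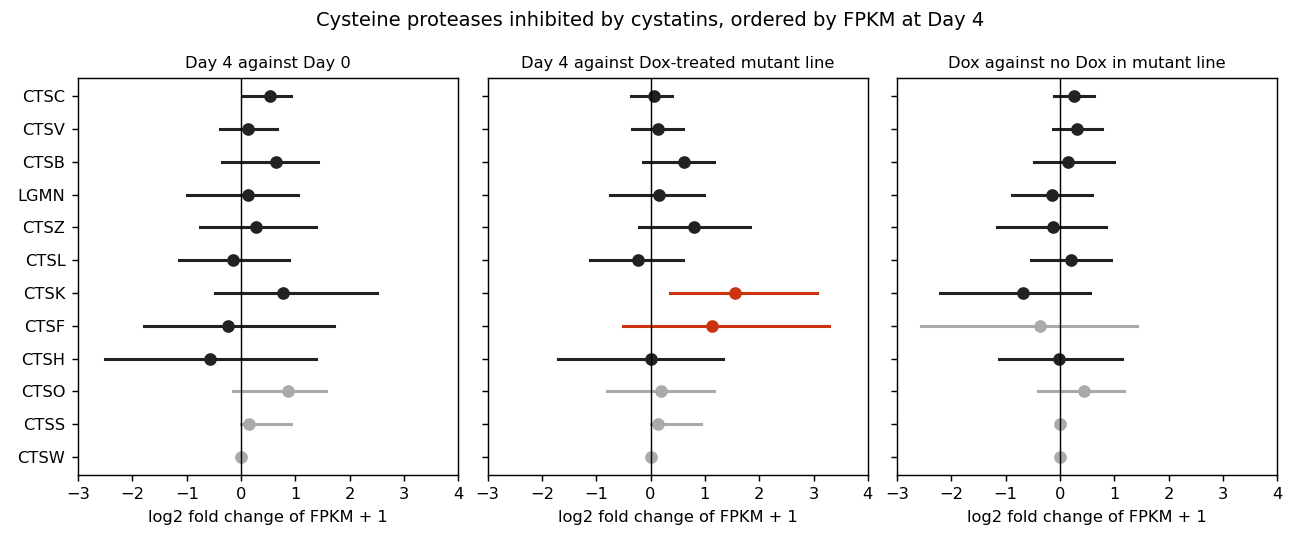
Log2 fold change of FPKM + 1 (horizontal axes) of 12 cysteine proteases, ordered by FPKM at Day 4, in 3 comparisons, with bars for the range that the Cufflinks intervals allow, red for genes past the cutoffs and grey for genes at or below 4 FPKM in both libraries. CTSK at 1.56 and CTSF at 1.13 pass the cutoffs against the Dox-treated mutant line (all genes, 6.56% up), and none passes them against Day 0.

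Genes whose levels ran most like CST1 were sought by Pearson's r of log2(FPKM + 1) over the 7 libraries, among 10877 other genes above 4 FPKM in at least 1 library. With 7 libraries, of which 4 are at or near 0 for CST1, this measure ranks genes by timing and not by size of change, and 247 genes had an r above 0.9. The highest was EOMES, a T-box factor of mesendoderm, with r = 0.997 and values of 0, 1.39, 10.9, 22.0 and 38.2 FPKM at Days 0 to 4 and 0.257 and 0.196 FPKM in the mutant line. PPP1R3B, a glycogen-targeting subunit of protein phosphatase, DHCR7, an enzyme of cholesterol synthesis, and the homeobox gene MEIS3 followed with r = 0.995, 0.995 and 0.993. SP5, CHD6, CHRD, PREX1, DAB1 and KIAA1161 completed the 10, with r between 0.989 and 0.990. The choice rests on this measure, since with Spearman's rho only 1 of these 10 genes, SP5, was among the first 10.

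These genes had unlike sizes of change. SP5, a zinc finger factor downstream of Wnt, had 0 FPKM before Dox and 28.2 on Day 4, and CHRD, the BMP antagonist chordin, had 0.241 and 17.3 FPKM. The chromatin remodeler CHD6 had 7.58 FPKM at Day 0 and a ratio of 1.45 at Day 4. CST3 was 95th in this ranking with r = 0.952 and CSTB was 494th with r = 0.836. Among the endoderm markers, CER1 had r = 0.986 and SOX17 r = 0.978, and SOX17, like CST1, was at 0 in both mutant-line libraries. GATA6 was lower in the ranking, at 52nd, and FOXA2 was 103rd, below CST3. No r is given for CXCR4, GATA4 and HHEX, so the likeness of the endoderm markers as a list was not tested. HHEX had 2.70 FPKM on Day 4 and 2.88 in the untreated mutant line. SOX17 had 3.05 FPKM on Day 2, when CST1 had 13.4, and 20.3 FPKM on Day 4.

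**Figure D5:**
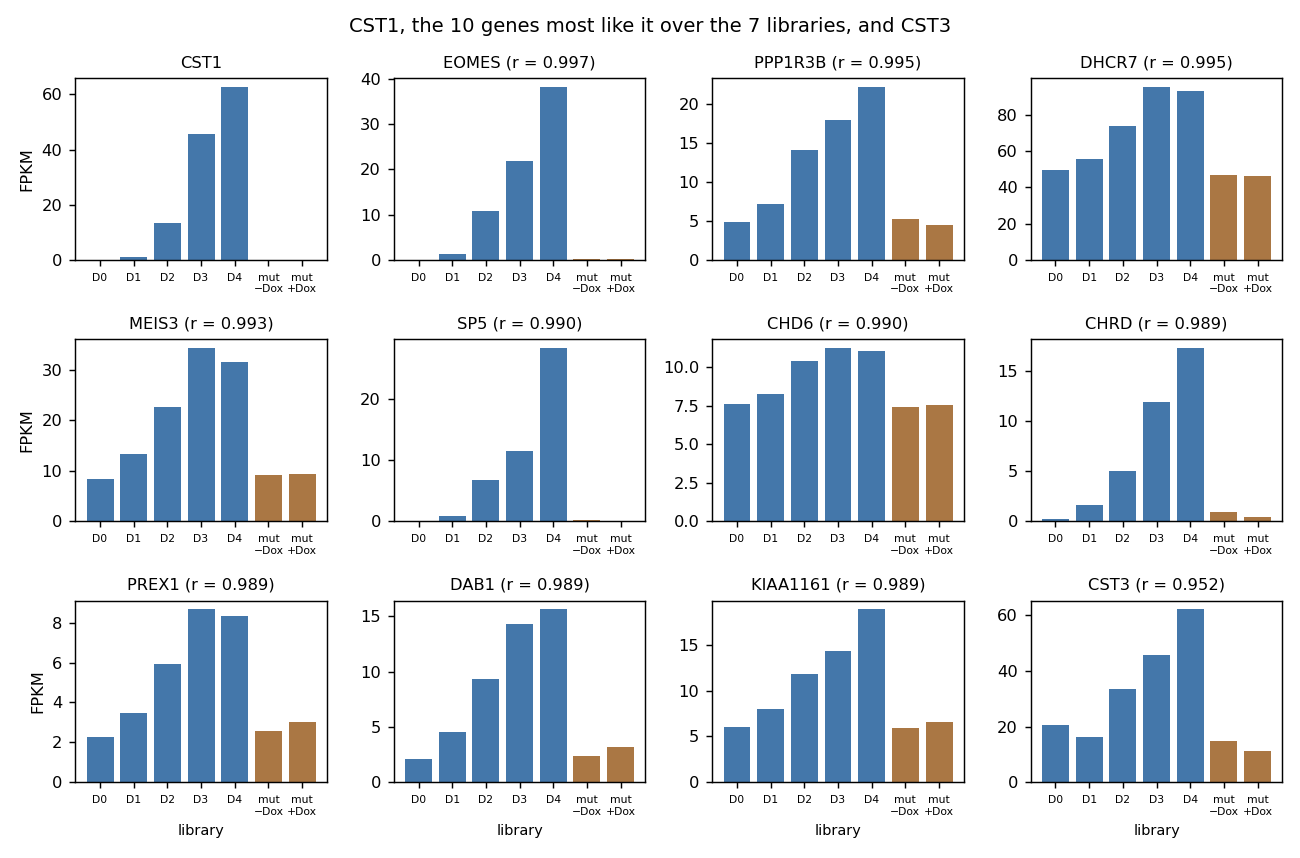
FPKM (vertical axes, each from 0) in the 7 libraries for CST1, the 10 genes with the highest Pearson's r with it and CST3, with blue for the JMJD3c line and brown for the mutant line. All panels are highest at Day 3 or Day 4, and the ratio of Day 4 to Day 0 is 1.45 for CHD6 and 71.7 for CHRD, while EOMES and SP5 start from 0.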

How the data were processed

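Poly(A) RNA of 7 samples was sequenced by the authors as single-end reads of 150 bases, mapped to hg19 with TopHat2 2.0.13 and counted per gene with Cufflinks 2.1.1. The authors deposited FPKM values and the bounds of their 95% intervals for 22670 entries per library, with 1 library per condition, and the annotation release is not given in the sources used here. Cufflinks by default splits a read that maps to several places evenly among them. No entry was removed, and the sample groups follow the labels.

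The calls used the ratio and FPKM cutoffs of the study, with the library that had to exceed 4 FPKM chosen here: FPKM over 2 times the reference and over 4 after treatment for an upregulated gene, and FPKM under 0.5 times a reference value over 4 for a downregulated one. Log2 fold changes added a pseudocount of 1, which understates the change of low genes. No test was made, and no p-value is given.

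Depth had to be estimated. In genes with 1 transcript of at least 700 bases in GENCODE release 44 (mapped to GRCh37, which is hg19), low values fall on whole multiples of 1 read once 200 bases are subtracted from the length. The commonest step gave the depth, with 65 to 81 genes within 3% of 1 read per library and 4 to 9 within 3% of 0.5 reads. The floor for genes at 0 is 3 reads and covers counting error only. Scripts were tested on simulated data.

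The members, the lists of proteases, other cystatins and markers, the rule for named genes and the alternatives were chosen with earlier results of these data known. Named genes are the members, proteases or other cystatins called in a comparison or among the 3 highest at Day 4, the 10 genes most like CST1, and called genes within 1500000 bases of it, and other endoderm markers with values were named after these were seen. Protein sequences were not used here, and gene sequences are not reported here. The calculations used Python 3.11.15, numpy 2.4.6, pandas 2.3.3 and matplotlib 3.10.9.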

Additional observations from a re-analysis of the deposited data

Results flagged for a closer look

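Of 47 genes looked at (the members, the proteases, the other cystatins, the 10 genes most like CST1 and the endoderm markers), 28 exceeded 4 FPKM in a library, and 14 of these had log2 fold changes of FPKM + 1 with Dox of opposite sign in the JMJD3c line (Day 4) and the mutant line. The difference between the lines was not tested, since each condition has 1 library. No share over all genes is given beside the 14, so nothing is read from this count. The 10 genes most like CST1 were also chosen by their values in these same libraries. Among the members, CST3 had 1.55 in the JMJD3c line and -0.35 in the mutant line, and CSTB had 0.32 and -0.15.

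Among the proteases, CTSK had 0.77 and -0.68, CTSZ 0.27 and -0.13, LGMN 0.13 and -0.15, and CTSL -0.16 and 0.20. Of the genes most like CST1, EOMES had 5.29 and -0.07, SP5 4.87 and -0.20, CHRD 3.88 and -0.44, PPP1R3B 1.96 and -0.18, and DHCR7 0.89 and -0.01. Of the other endoderm markers, CER1 had 7.07 and -0.44, GATA6 3.98 and -0.20, and GATA4 3.58 and -0.31. The Cufflinks intervals in the JMJD3c line were apart for 9 of the 14 and overlapped for CSTB and the 4 proteases, and those in the mutant line overlapped for all 14.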

How the results depend on the processing

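CST1 and CST3 were called at Day 4 against Day 0 and against both mutant-line libraries under every alternative run (FPKM cutoffs of 1, 10 and none, a pseudocount of 1 in the ratio, scaling by median ratio or by total FPKM, and intervals also apart). Lower cutoffs added genes at or below 4 FPKM in the compared libraries. Without a cutoff, 4 members were called at Day 3 (CST1, CST3, CST4 and CST6) and 2 at Day 2 (CST1 and CST4). At Day 1, where the main count was 0, 2 members (CST1 up, CST6 down) were called with a cutoff of 1 FPKM, and 2 also with none. For the proteases at Day 4, 1 (CTSO) was called with a cutoff of 1 FPKM and 2 (CTSO and CTSS) with none. With the untreated mutant line as the reference, an alternative chosen after seeing the data, 2 members (CST1 and CST3) were called at Day 2 in place of 1. The log2 fold change of CST1 at Day 4 was 5.99 with a pseudocount of 1, 9.29 with 0.1 and 4.06 with 4, since it is measured against 0. That of CST3 ran from 1.43 to 1.62 over the pseudocounts and scalings. With other libraries compared, it was 1.11 for Day 3 against Day 0 and 2.00 for Day 4 against the untreated mutant line. Of the 10 genes most like CST1, 7 were among the first 10 without the Day 4 library, 6 with a pseudocount of 0.1 and 1 with Spearman's rho. Alternatives for the fold changes of CST2, CST4, CST6 and CST7 were not computed, since CST2 and CST4 lie under the floor and no floor was estimated for CST6 and CST7. No library could be left out within a condition. No paired analysis was possible because each condition has 1 library.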
